A study of Sus scrofa with 23 samples.

Results

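The interferon response genes are transcripts that type I and type II interferons induce in most vertebrate cells. A list of 41 such genes was chosen with earlier results of these data known. Counts from it beside shares of all genes are therefore description only. The list was matched by symbol to the 25880 genes of the pig count table, skipping absent symbols and genes under 10 counts in most libraries. 36 were kept, and all 36 passed the filter on low counts. IFIT3, OAS1, XAF1 and SP100 matched no symbol in the table used here. ISG20, an exonuclease, had 24 counts in all over 23 libraries, at most 7 in 1 library, and was skipped. The study asked how cortical gene expression differs after a single dose of psilocybin, a serotonergic psychedelic. Adolescent female Danish slaughter pigs of 20 kg, awake and unrestrained, received psilocybin at 0.08 mg/kg or saline by intravenous injection. They were killed with pentobarbital 1 day or 1 week later, brains were snap frozen, and poly-A RNA of the prefrontal cortex was sequenced. The groups were psilocybin at 1 day (6 pigs), saline at 1 day (5), psilocybin at 1 week (6) and saline at 1 week (6), and the labels place 12 libraries in batch 2 and 11 in batch 1.

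Interferons bind receptors that activate the kinases JAK1 and TYK2. These phosphorylate transcription factors such as STAT2, which acts in a complex with IRF9 to drive antiviral genes. The induced proteins sense viral RNA, block its translation or replication, attach the ubiquitin-like protein ISG15 to other proteins, or attract leukocytes. In the brain, microglia, astrocytes, endothelial cells and neurons can all express them, at low tonic levels in the absence of infection.

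Library totals ran between 9504421 and 18654626 counts, with a median of 11631460. The tissue label was checked against cortical neuron markers: SNAP25, a synaptic fusion protein, averaged 2720 CPM (read counts relative to the scaled size of the library), and SLC17A7, the vesicular glutamate transporter of cortical excitatory neurons, 1100 CPM. Both were above 0 in every library. In an earlier analysis 3 libraries stood apart from the rest, namely animal 6 of psilocybin at 1 week, animal 5 of saline at 1 day and animal 1 of saline at 1 week. Medians without them stand beside the results. In bulk tissue, fewer cells of a type and less RNA per cell cannot be told apart.

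All 36 members were detected in every library. Per kilobase of exon, the highest mean levels over all 23 pigs belonged to IFI6, a mitochondrial and endoplasmic reticulum protein that limits flavivirus replication (60.5 CPM per kilobase), and to MX1, a dynamin-like GTPase that traps viral nucleocapsids (58.7 CPM per kilobase). ISG15 itself followed at 26.1 and ADAR, the double-stranded RNA editing enzyme, at 12.1 CPM per kilobase. The lowest were CXCL10, a chemokine that attracts T cells through the receptor CXCR3 (0.645 CPM per kilobase), and PARP9, a partner of the ubiquitin ligase DTX3L (0.589 CPM per kilobase). Of the members 13 share exon bases with another gene, in which reads may be split or attributed to either: UBA7 shares 6026 with CDHR4, IRF7 2909 with PHRF1, STAT2 2190 with PAN2 and IRF9 1449 with REC8.

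**Figure D1:**
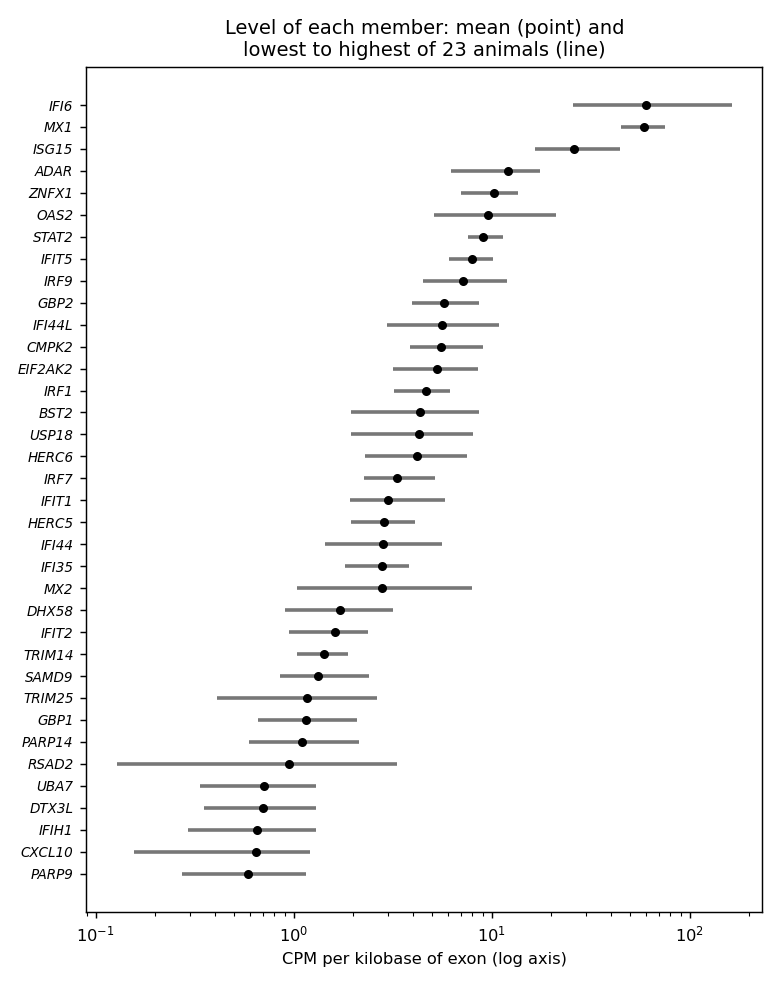
Mean level of each of the 36 members over 23 pigs (point) with the lowest and highest animal (line), as CPM per kilobase of exon on a log axis. IFI6 and MX1 lead at 60.5 and 58.7, and RSAD2 has the longest line, a 26.0-fold range.

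The members varied more between pigs of the same group than most genes did. The biological coefficient of variation, edgeR's estimate of the relative spread between replicates, had a median of 0.258 over the 36 members, against 0.143 over all genes tested. It lay above the median of all genes in 30 members and above the 90th percentile (0.276) in 16. RSAD2, which encodes viperin, an enzyme that makes a chain-terminating nucleotide, was the most variable member, with a coefficient of 0.7. Ranges over all 23 pigs also cross groups and batches. On that range the highest RSAD2 level (27.1 CPM, saline at 1 day) was 26.0 times the lowest (1.04 CPM, saline at 1 week). MX2, a GTPase of the nuclear pore, spanned 7.61-fold, CXCL10 7.69-fold, TRIM25, a ubiquitin ligase that acts in RNA sensing, 6.4-fold and IFI6 6.36-fold. At the other end, STAT2 spanned 1.49-fold, MX1 1.67-fold and IFIT5, which binds RNA with a 5′ phosphate, 1.68-fold.

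Some pigs were high for nearly all members at once. An interferon score was taken for each pig as the mean over the 36 members of log2 CPM, each relative to its own mean over the 23 pigs. The highest score, 0.738, was that of animal 3 of psilocybin at 1 week. It was above the mean in 36 of 36 members, was the highest of all 23 pigs in 11 and among the top 3 in 27, and its level was at least 2-fold the median of the other 22 pigs in 14. Animal 5 of the same group followed with 0.648 (highest pig in 8 members), then animal 3 of saline at 1 day with 0.533 (highest in 9) and animal 5 of psilocybin at 1 day with 0.387. The lowest score, -0.517, was that of animal 1 of saline at 1 week, which was the lowest pig in 13 members. High and low pigs thus occurred in both treatments.

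**Figure D2:**
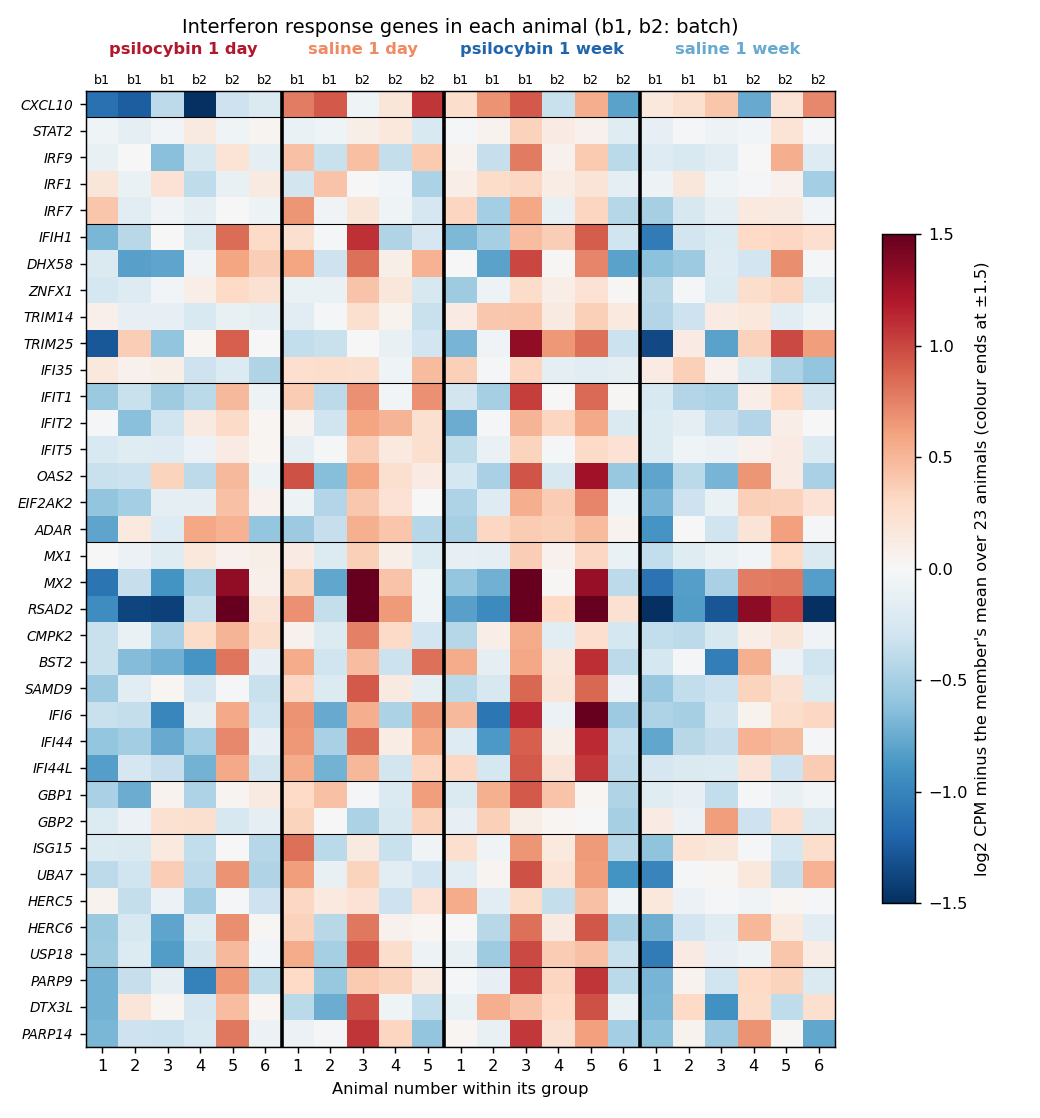
log2 CPM of each member in each pig minus that member's mean over 23 pigs, with members in rows ordered by role and pigs in columns by group and batch (b1, b2); colours end at ±1.5. Animals 3 and 5 of psilocybin at 1 week and animal 3 of saline at 1 day are warm over most rows.

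Group means of the score were -0.156 ± 0.286 in psilocybin pigs at 1 day and 0.137 ± 0.28 in saline pigs at 1 day (SD, n = 6 and 5). At 1 week they were 0.155 ± 0.438 in psilocybin pigs and -0.113 ± 0.268 in saline pigs (SD, n = 6 each). All 4 groups overlapped. The difference between psilocybin and saline at 1 day was -0.29, and -0.20 within batch 2 and -0.35 within batch 1. At 1 week it was 0.27, and 0.08 within batch 2 and 0.46 within batch 1. At 1 week the psilocybin group held the first and second highest of all 23 scores, while its other 4 pigs ran between -0.284 and 0.117, inside the range of saline pigs at 1 week (-0.517 to 0.201).

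**Figure D3:**
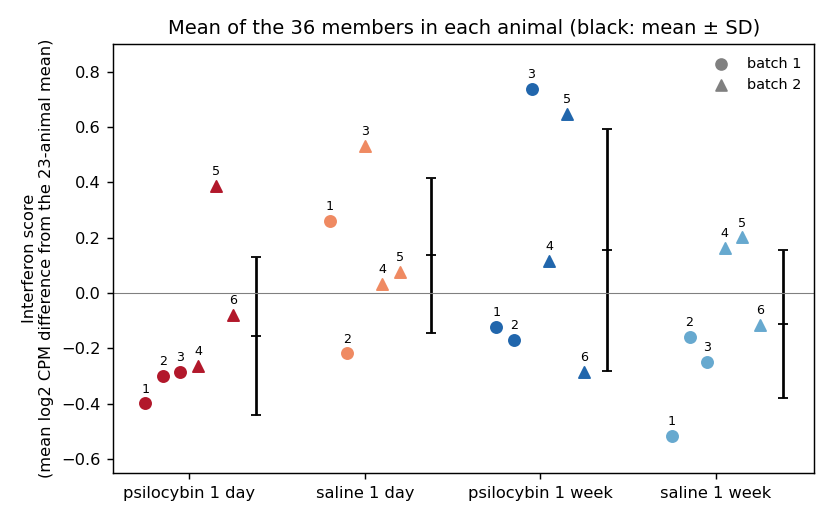
Interferon score of each pig (points numbered by animal; circles batch 1, triangles batch 2), with the mean ± SD of each group in black; the y axis is the mean log2 CPM difference from the 23-pig mean. The psilocybin group averages -0.156 at 1 day and 0.155 at 1 week, the saline group 0.137 and -0.113, and all groups overlap.

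The first comparison set psilocybin against saline at 1 day. No gene passed at an adjusted p under 0.05: 0% of 15049 genes and 0 of 36 members with edgeR. The count was also 0 with DESeq2 and limma-voom, and at an unadjusted p under 0.05 edgeR gave 236 genes lower and 190 higher, DESeq2 452 and limma-voom 397 in all. The log2 fold changes of the members lay mostly below 0, in 30 of 36, with a median of -0.29; over all genes tested 48.6% were below 0 and the median was 0.0044. Of the members, 4 had an unadjusted p under 0.05 (CXCL10, IFI35, HERC5 and GBP1), all with lower levels in psilocybin pigs. Over all genes 1.57% had such a p with a lower level and 2.83% in either direction. The median of the members was -0.17 without saline animal 1 and -0.18 without saline animal 3, the saline pigs with the highest scores. It was -0.23 in batch 2 alone, -0.34 in batch 1 alone and -0.30 without the 3 libraries that stood apart.

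By role, the chemokine CXCL10, all 5 genes of ISG15 conjugation, both guanylate-binding proteins and all 9 members of the mixed group of antiviral effectors had negative log2 fold changes at 1 day. In ISG15 conjugation these ran between -0.47 for USP18, the protease that removes ISG15 and dampens the type I receptor, and -0.14 for UBA7, the activating enzyme. Among the mixed effectors they ran between -0.87 (RSAD2) and -0.02 (MX1), with -0.58 for IFI44, a cytoplasmic protein induced by interferon, -0.53 for MX2, -0.50 for BST2, which tethers budding virions to the cell surface, and -0.42 for IFI6. Of the 4 transcription factors, IRF9 (-0.29) and IRF7 (-0.12) were below 0, while STAT2 (0.01) and IRF1 (0.02) were near 0. The positive values were those of TRIM25 (0.29), ADAR (0.10), DTX3L (0.04) and, within 0.03 of 0, IRF1, STAT2 and ZNFX1, a helicase that senses viral RNA at mitochondria. None of these passed the test.

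CXCL10 (ENSSSCG00000032474, chromosome 8, 71690758 to 71696162 in the build of the files) had the smallest p of the members. Its level in psilocybin pigs at 1 day was lowest at 0.663, median 1.48 and highest 2.08 CPM, against 4.12, 4.57, 2.31, 2.75 and 5.09 CPM in saline pigs at 1 day. Every psilocybin pig was thus below every saline pig, the only member of which this held; 0.0797% of all genes tested had such a lower group without overlap. The log2 fold change was -1.41 ± 0.31 (SE; 95% confidence interval -2.05 to -0.76), with an unadjusted p of 0.000141 and an adjusted p of 0.997 over all genes with edgeR. DESeq2 gave it an adjusted p of 0.0804. In batch 2 alone the value was -1.18 and in batch 1 alone -1.69. CXCL10 averaged 33.3 counts per library, and its counts were whole in all 23 libraries. At 1 week the 2 treatments were close, at 3.03 ± 1.21 CPM in psilocybin pigs and 2.84 ± 0.839 CPM in saline pigs (SD, n = 6 each; log2 fold change 0.09 ± 0.29), and the value was below 0 without psilocybin animal 3 (-0.03), without psilocybin animal 5 (-0.01) or without saline animal 4 (-0.04).

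IFI35, a leucine-zipper protein reported to modulate RNA sensor signalling (ENSSSCG00000029763, chromosome 12, 19879514 to 19891123), had 3.69 (lowest), 4.81 (median) and 5.62 (highest) CPM in psilocybin pigs at 1 day, against 6.02, 6.07, 5.95, 4.82 and 7.0 CPM in saline pigs. Only saline animal 4 lay inside the psilocybin range. Its log2 fold change was -0.39 ± 0.13 (SE), with an unadjusted p of 0.00664 and an adjusted p of 1. Levels of IFI35 also differed by batch, and inside each batch every psilocybin pig was below every saline pig. CXCL10 and IFIT5 were the other members of which that held, 8.33% of the members, and 0.445% of all genes did so in the lower direction.

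HERC5, the ligase that attaches ISG15 to newly made proteins (ENSSSCG00000030548, chromosome 8, 130529324 to 130590841), had 15.4 (lowest), 19.3 (median) and 22.9 (highest) CPM in psilocybin pigs at 1 day, against 27.5, 24.5, 25.6, 17.8 and 25.7 CPM in saline pigs. Of the saline pigs 4 were above all psilocybin pigs, and animal 4 was inside their range. The log2 fold change was -0.34 ± 0.14 (SE; unadjusted p 0.022, adjusted p 1). HERC5 shares 660 exon bases with an unnamed gene on the opposite strand that had more counts (739.9 on average, against 276 for HERC5), so reads of the 2 genes cannot be fully told apart.

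GBP1, a GTPase that attacks vacuoles holding pathogens (ENSSSCG00000024973, chromosome 4, 127289856 to 127442565), had 10.6 (lowest), 15.5 (median) and 19.4 (highest) CPM in psilocybin pigs at 1 day, against 21.7, 24.0, 17.5, 15.2 and 27.3 CPM in saline pigs. The groups overlapped, with saline animals 3 and 4 inside the psilocybin range. Psilocybin over saline gave a log2 fold change of -0.46 ± 0.20 (SE; unadjusted p 0.032, adjusted p 1); it was -0.27 in batch 2 alone and -0.72 in batch 1 alone. The annotated span of GBP1 holds GBP2 and further gene models of the GBP family, so counts of single copies are uncertain, and this also holds for the IFIT genes. The score difference between psilocybin and saline was the same without the GBP and IFIT members (-0.29 at 1 day, and 0.28 in place of 0.27 at 1 week).

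**Figure D4:**
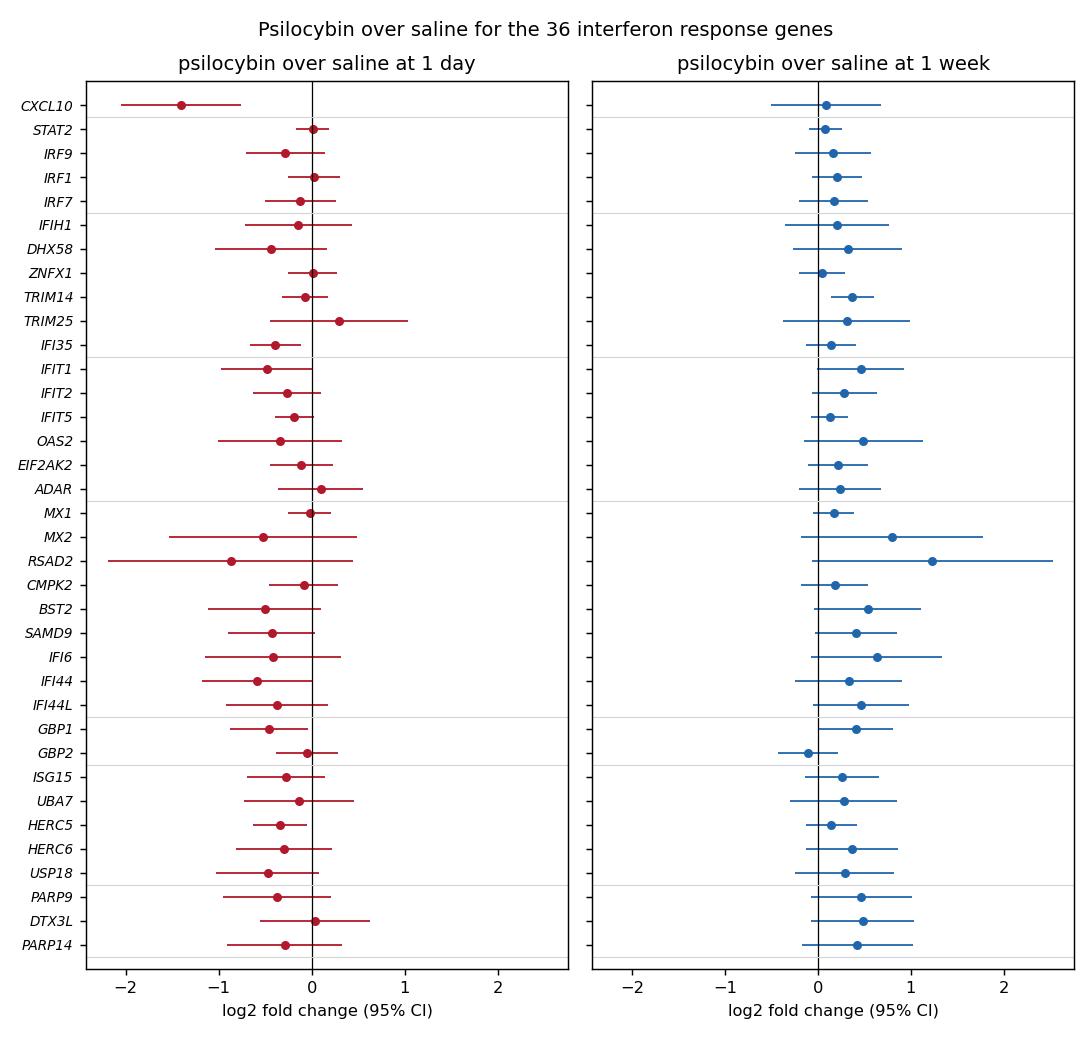
log2 fold change of psilocybin over saline with its 95% confidence interval for each member, at 1 day (left) and 1 week (right), in role order. At 1 day 30 of 36 points lie below 0, at 1 week 35 of 36 above, and most intervals cross 0.

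The second comparison set psilocybin against saline at 1 week. Here 35 of 36 members had higher fitted levels in psilocybin pigs, with a median log2 fold change of 0.29; over all genes 48.8% were above 0 and the median was -0.0032. No gene and no member passed (0%), with edgeR, DESeq2 or limma-voom, which gave 300, 318 and 257 genes at an unadjusted p under 0.05. Of the members, TRIM14 and GBP1 had such a p, both higher, against 1.2% of all genes in that direction. In no member were the 2 groups free of overlap; 0.0199% of all genes were so in the higher direction. The median of the members was 0.13, with 31 of 36 above 0, without psilocybin animal 3, and 0.18 without saline animal 1. In batch 2 alone it was 0.09 (26 of 36 above 0) and in batch 1 alone 0.52 (35 of 36), and without the 3 libraries that stood apart 0.32.

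By role, the exception was GBP2 (-0.10), a relative of GBP1. Among the mixed antiviral effectors all 9 log2 fold changes were positive, between 0.17 (MX1) and 1.23 (RSAD2), with 0.80 for MX2, 0.64 for IFI6 and 0.54 for BST2. The 3 genes of ADP-ribosylation were close to each other, at 0.49 for DTX3L, 0.47 for PARP9 and 0.42 for PARP14, a transferase that modifies proteins with ADP-ribose. The 5 genes of ISG15 conjugation had 0.15 (HERC5) to 0.37 (HERC6, a second ligase of that family), and the 4 transcription factors 0.08 (STAT2) to 0.20 (IRF1). None of these passed the test.

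TRIM14, an adaptor that helps mitochondrial antiviral signalling (ENSSSCG00000033222, chromosome 1, 239912128 to 239945002), had the smallest p of the members at 1 week. It had 12.3 (lowest), 13.5 (median) and 15.1 (highest) CPM in psilocybin pigs, against 8.33 (lowest), 10.4 (median) and 12.6 (highest) CPM in saline pigs. Saline animals 3 and 4 reached the lower part of the psilocybin range, and the other 4 lay under it. Its log2 fold change was 0.37 ± 0.11 (SE; 95% confidence interval 0.14 to 0.60; unadjusted p 0.00314, adjusted p 1), with 0.23 in batch 2 alone and 0.51 in batch 1 alone. At 1 day psilocybin pigs had 10.5 ± 0.739 CPM and saline pigs 11.0 ± 1.64 CPM (SD, n = 6 and 5). TRIM14 shares 542 exon bases with NANS, a sialic acid synthase gene on the opposite strand with a higher count (862.8 on average).

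GBP1 at 1 week had 12.9 (lowest), 20.9 (median) and 33.4 (highest) CPM in psilocybin pigs, against 13.7, 16.3 and 17.4 CPM in saline pigs in the same order. The psilocybin group covered the whole saline range and had 4 pigs above it. Psilocybin over saline gave a log2 fold change of 0.41 ± 0.20 (SE; unadjusted p 0.0471, adjusted p 1), 0.24 without psilocybin animal 3, 0.10 in batch 2 alone and 0.70 in batch 1 alone.

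IFIT1, which binds capped viral RNA and blocks its translation (ENSSSCG00000010452, chromosome 14, 101213979 to 101251108), had 14.0 (lowest), 19.9 (median) and 40.6 (highest) CPM in psilocybin pigs at 1 week, against 14.2, 16.6 and 24.3 CPM in saline pigs. Only psilocybin animals 3 (40.6 CPM) and 5 (35.5 CPM) were above the saline range. The log2 fold change was 0.46 ± 0.23 (SE; unadjusted p 0.0532, adjusted p 1), and 0.17 without psilocybin animal 3. It was 0.28 in batch 2 alone. In RefSeq's pig annotation, IFIT3 lies inside the span counted as IFIT1, so that count may hold reads of both.

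RSAD2 (ENSSSCG00000008648, chromosome 3, 128880859 to 128898072) had 2.64 (lowest), 6.13 (median) and 23.5 (highest) CPM in psilocybin pigs at 1 week, against 1.04, 2.48 and 13 CPM in saline pigs. The same 2 psilocybin pigs, animals 3 and 5, were above the saline range, and saline animals 4 and 5 were above the other 4 psilocybin pigs. The log2 fold change was 1.23 ± 0.63 (SE; unadjusted p 0.0614, adjusted p 1), and 0.39 without psilocybin animal 3. It was 0.33 in batch 2 alone and 2.22 in batch 1 alone. At 1 day RSAD2 had -0.87 ± 0.64 (SE), and -0.37 without saline animal 3 (27.1 CPM) and -1.46 without psilocybin animal 5 (18.0 CPM).

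**Figure D5:**
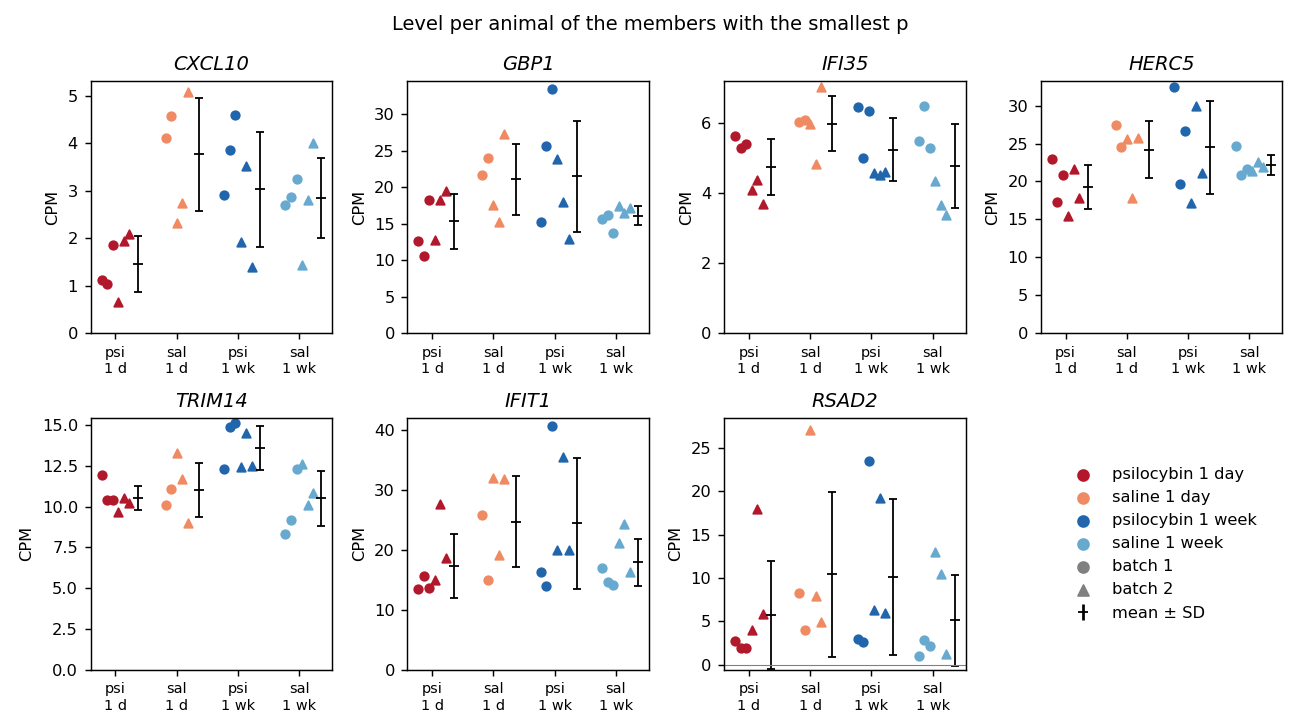
CPM of 7 members in each pig (circles batch 1, triangles batch 2) with the mean ± SD of each group in black; axes run to 0, or below it where the SD does. CXCL10 at 1 day is the panel in which all psilocybin pigs (at most 2.08 CPM) lie below all saline pigs (at least 2.31 CPM), and IFIT1 and RSAD2 at 1 week show 2 high psilocybin pigs.

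The difference between the psilocybin effects, 1 week minus 1 day, uses the same animals as both comparisons above. It was positive in 35 of 36 members, with a median log2 difference of 0.54; over all genes 50.3% were above 0 and the median was 0.0010. No gene and no member passed (0%). At an unadjusted p under 0.05 there were 16 members, all positive, against 1.11% of all genes in that direction and 304 genes in either. They were CXCL10 (1.5 ± 0.42), GBP1 (0.87 ± 0.28), IFI35 (0.54 ± 0.18), IFIT1 (0.94 ± 0.33), SAMD9, TRIM14, BST2, HERC5, RSAD2, IFI44L, IFI44, IFIT5, IFIT2, PARP9, IFI6 and USP18 (log2 difference ± SE where given). Single pigs were high or low in most members at once, so these 16 are not separate results, and no test was made over the list. The median of the members was 0.39 in batch 2 alone, with 28 of 36 positive, and 0.81 in batch 1 alone, with 36 of 36. The difference of CXCL10 was 0.96 in batch 2 alone and 2.05 in batch 1 alone. That of GBP1 was 0.37 in batch 2 alone and 1.41 in batch 1 alone, that of IFI35 0.81 and 0.20, and that of IFIT1 0.74 and 1.14, in the same order. Of the roles, the mixed antiviral effectors had the most such members, 6 of 9, and the transcription factors had 0 of 4. TRIM25 (0.02), ADAR (0.15), STAT2 (0.07), ZNFX1 and GBP2 (-0.05) had differences near 0 or small beside their errors. Both single comparisons put 29 members below 0 at 1 day and above 0 at 1 week. ADAR, DTX3L, IRF1, STAT2, TRIM25 and ZNFX1 were above 0 at both and GBP2 was below 0 at both.

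The same pigs can be ordered by time within a treatment. Of the 4 groups, psilocybin at 1 week had the highest mean CPM in 20 members and saline at 1 day in 15. Psilocybin at 1 day had the lowest mean in 19 members and saline at 1 week in 14. Within psilocybin, 1 week minus 1 day was positive in 34 of 36 members, with a median of 0.36 (all genes: 54.3% positive, median 0.0124). No gene passed (0%; 479 genes at an unadjusted p under 0.05), and 12 members had an unadjusted p under 0.05, all higher at 1 week, against 1.53% of all genes. These 12 were measured in the same pigs and are not separate results either. CXCL10 had 1.06 ± 0.31, TRIM14 0.38 ± 0.11, PARP9 0.68 ± 0.27, IFI44L 0.66 ± 0.25 and HERC5 0.35 ± 0.13 (log2 fold change ± SE, adjusted p 0.999 each). TRIM14 was the only member without overlap, at 12.3 CPM or more in psilocybin pigs at 1 week and 11.9 CPM or less in psilocybin pigs at 1 day; 0.0399% of all genes were so in that direction. The median was 0.14 without animal 3 at 1 week, 0.12 in batch 2 alone and 0.41 in batch 1 alone.

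Within saline, 1 week minus 1 day was negative in 31 of 36 members, with a median of -0.23 (all genes: 48.3% negative, median 0.0043). No gene passed (0%; 303 genes at an unadjusted p under 0.05). IFI35 was the only member with an unadjusted p under 0.05 (-0.39 ± 0.13 SE, p 0.00739, adjusted p 1), against 0.857% of all genes in that direction. The median was -0.12 both without animal 1 and without animal 3 of the 1 day group. The saline pigs thus differed between the times by a median of a size like that between the treatments, and the psilocybin comparisons at the 2 times rest on different saline pigs.

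Batch was the term with which members passed the test. Of 36 members 9 did, a smaller share than the 32.9% of all genes that did. Of these 9, 8 were higher in batch 2 (16.1% of all genes) and 1 lower (16.8%). EIF2AK2, the kinase PKR that stops translation on sensing double-stranded RNA, rose by 0.51 ± 0.11 on the log2 scale in batch 2 relative to batch 1 (SE; adjusted p 0.00202, edgeR). RSAD2 (1.26), IFIH1, the RNA sensor MDA5 (0.56), IFI44 (0.55), ADAR (0.49), IFIT2 (0.34), ZNFX1 (0.29) and IFIT5 (0.21) rose as well, with adjusted p between 0.0133 and 0.0396. IFI35 fell by 0.37 ± 0.09 in batch 2 (adjusted p 0.00424). Over all members 27 were higher in batch 2 with a median of 0.29, and over all genes 46.5% were. The count of 9 fell to 5 without psilocybin animal 5 at 1 day, without psilocybin animal 1 or 5 at 1 week or without saline animal 3 at 1 day, and was 18 without psilocybin animal 3 and 14 without psilocybin animal 6 at 1 week. Both batches hold pigs of all 4 groups, and batch is a term of every fit above.

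Other genes of the pathway were counted from fixed lists. Of the interferon genes themselves, 4 were found by symbol. These were hardly detected and were not tested: IFNB1 had 6 counts, IFNG 7, IFNE 13 and IFNK 5 in all over 23 libraries. Interferon genes without a matching symbol were not measured. Of 12 receptor and signalling genes, 6 were lower and 6 higher in psilocybin pigs at 1 day, and 3 lower and 9 higher at 1 week, with 0 at an unadjusted p under 0.05 at either time. The type I receptor genes had log2 fold changes of 0.10 (IFNAR1) and 0.05 (IFNAR2) at 1 day, and 0.10 for both at 1 week.

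Of 15 nucleic acid sensing genes, 7 were lower and 8 higher at 1 day, and 4 lower and 11 higher at 1 week. RIGI, the sensor of viral RNA ends, had 24.5 ± 5.49 CPM in psilocybin pigs and 30.5 ± 6.47 CPM in saline pigs at 1 day (log2 fold change -0.27 ± 0.15 SE, unadjusted p 0.0754). ZBP1, a sensor of Z-form nucleic acids, had -0.56 ± 0.33 (SE) at 1 day. Of 10 negative regulators, 8 were lower and 2 higher at 1 day, and 2 lower and 8 higher at 1 week. Of 31 further interferon-induced genes, 23 were lower and 8 higher at 1 day, with a median of -0.09; EPSTI1, named for epithelial and stromal interaction, had -0.50 ± 0.27 (SE). At 1 week 9 of the 31 were lower and 22 higher, with a median of 0.11 and 7 at an unadjusted p under 0.05, all higher, against 1.2% of all genes in that direction. The 3 smallest p were those of CCL2, a monocyte chemokine (1.03 ± 0.39), IDO1, which degrades tryptophan (1.91 ± 0.81), and TRIM21, a cytosolic antibody receptor (0.50 ± 0.22; log2 fold change ± SE, adjusted p 1 each). IDO1 ran between 0 and 8.41 CPM in psilocybin pigs and between 0.13 and 2.74 CPM in saline pigs at 1 week. CCL2 had 1.55 ± 0.903 CPM in psilocybin pigs and 0.749 ± 0.253 CPM in saline pigs at 1 week (SD, n = 6 each). The summed level of the further interferon-induced genes then ran between 450 and 632 CPM in psilocybin pigs and 468 and 532 CPM in saline pigs. All these lists were measured in the same pigs as the members, so their directions are not independent of those above.

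Markers of cell types that can carry interferon genes were measured beside the members. Of 19 microglia markers, 14 had lower fitted levels in psilocybin pigs at 1 day (median log2 fold change -0.12) and 17 higher ones at 1 week (median 0.08), and none passed. Their summed level ran between 243 and 502 CPM in psilocybin pigs and 285 and 484 CPM in saline pigs at 1 day, and between 343 and 545 CPM in psilocybin pigs and 354 and 479 CPM in saline pigs at 1 week. Within psilocybin, 18 of the 19 were higher at 1 week than at 1 day (median 0.18). In batch 2 relative to batch 1, 17 of the 19 were lower, with a median of -0.43 over the list. Of the 19, 14 were lower at an adjusted p under 0.05 with edgeR, against 16.8% of all genes. Animal 3 of psilocybin at 1 week, with the highest interferon score, had the highest microglia sum of all 23 pigs (545 CPM, batch 1). Animal 5 of the same group, with the second highest score, had the highest sum of the 12 pigs in batch 2 (471 CPM). Animal 3 of saline at 1 day, also in batch 2 and with the third highest score, had the second lowest sum (285 CPM).

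The summed level of 13 leukocyte markers ran between 29.9 and 51.6 CPM in psilocybin pigs and 33.8 and 49.7 CPM in saline pigs at 1 day, and between 30.1 and 54.1 CPM in psilocybin pigs and 34.6 and 47.9 CPM in saline pigs at 1 week. Its largest parts were CD79A (16.7 CPM on average), LCP1 (11.9 CPM) and PTPRC (5.81 CPM). CD79A shares 3229 exon bases with ARHGEF1 on the same strand, so its count may hold reads of both. HBB and ALAS2, listed with these markers, were left out of the sum. HBB ran between 15.2 and 479 CPM in psilocybin pigs and 30.7 and 97.8 CPM in saline pigs at 1 day. At 1 week it ran between 32.5 and 212 CPM and between 10.7 and 174 CPM, in the same order. MS4A1, a B cell marker, was at 0 in 10 libraries, S100A12, of neutrophils, in 14, CSF3R, the neutrophil growth factor receptor, in 3 and CD3E, of T cells, in 2. All 9 astrocyte markers had higher fitted levels in psilocybin pigs at 1 day (median 0.15), and 6 of 9 at 1 week (median 0.05). Of 10 endothelial and mural markers, 9 were higher at 1 day (median 0.07) and 5 at 1 week (median -0.01). Within saline, all 9 astrocyte markers (median 0.19) and all 10 endothelial and mural markers (median 0.11) were higher at 1 week than at 1 day. Within psilocybin, 8 of the astrocyte markers (median 0.11) and 7 of the endothelial and mural markers (median 0.02) were. Of 9 oligodendrocyte markers, 7 were lower in psilocybin pigs at 1 day (median -0.10) and all 9 at 1 week (median -0.20, between -0.26 and -0.17), and none passed. Within psilocybin, all 9 were lower at 1 week than at 1 day (median -0.17), and within saline 8 of 9 were (median -0.08). Their summed level ran between 6530 and 13300 CPM in psilocybin pigs and 3780 and 23400 CPM in saline pigs at 1 day, and between 6970 and 9840 CPM in psilocybin pigs and 5430 and 14200 CPM in saline pigs at 1 week. Of 10 neuron markers, 6 were lower at 1 day (median -0.02) and 4 at 1 week (median 0.01), and none passed. The part of these cell types in the interferon values was not tested.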

How the data were processed

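Prefrontal cortex RNA of 23 pigs was sequenced after poly-A selection. The authors deposited 1 table of expected counts for 25880 genes. Of its values, 72.2% were exactly whole and the rest fractional. Per the submitters' processing notes, the tools were fastp 0.20.0, STAR 2.6c and featureCounts 1.5.1, and the build was susScr11. Whether counting used strand is not given in the sources used here.

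The deposited counts were rounded to whole numbers, which moved no library's total by more than 0.0013%. The 15049 genes that passed edgeR's filterByExpr (minimum count 10, minimum total 15) were scaled by TMM. They were fitted with edgeR 4.0.16 (robust quasi-likelihood F test, two-sided) under R 4.3.3, over all 23 libraries, with 4 groups and batch as a term. P-values were adjusted by Benjamini and Hochberg over all genes tested, with a threshold of 0.05. CPM were computed with the TMM-scaled library sizes. Alternatives were DESeq2 1.42.0, limma-voom (limma 3.58.1), other scaling and filters, each batch alone and each animal left out. The statistical steps were tested on simulated data.

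Gene symbols came from a table that names 14857 of the 25880 identifiers. Each library is 1 animal by its label. The study states 6 animals per group, while the deposited counts hold 5 saline animals at 1 day. All 23 libraries of these counts were used. The members, the marker lists and the pathway lists were chosen with earlier results of these data known. Members given animal by animal are the 4 with the smallest p in each psilocybin comparison and in the difference between them. Other pathway genes are named where they had the 3 smallest p in a psilocybin comparison, or were IFNAR1, IFNAR2, IFNB1 or IFNG. Counts of groups that do not overlap inside each batch were added after seeing the data. Some items of the gene lists are not reported here.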

Additional observations from a re-analysis of the deposited data

Results flagged for a closer look

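A single pig lay far from the others of its group in 4 of 32 groups looked at, which are the 4 groups for each of 7 members and for the interferon score. For 1 group taken alone, chance gives such a case about 1 time in 20. The 7 members were picked by p, and members were high or low together in the same pigs. Counts of such groups therefore cannot be weighed against that rate. In psilocybin pigs at 1 day, animal 1 had the highest TRIM14 level, at 11.9 CPM. Animal 5 of the same group had the highest IFIT1 level, at 27.7 CPM, and the highest RSAD2 level, at 18.0 CPM. In saline pigs at 1 day, animal 3 had the highest RSAD2 level, at 27.1 CPM. Over all 36 members, 15 of 144 groups held such a pig.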

How the results depend on the processing

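No paired analysis was possible because the 4 groups share no animal number. Apart from leaving out animals, 315 recomputed values kept their direction and their side of the threshold, or moved by less than 1.5 times for counts and by less than the spread between animals (0.325) for medians and the score. The 2 exceptions were counts of genes called by DESeq2 for 1 week against 1 day. They were 1 gene within psilocybin and 1 gene within saline, against 0 each with edgeR. Neither was a member. The tolerance of 0.325 is larger than the member medians of psilocybin against saline (-0.29 at 1 day, 0.29 at 1 week). A fall of either to 0 would have counted as kept, so this rule cannot show that they were stable. Over 11 other settings the median ran between -0.34 and -0.23 at 1 day and between 0.09 and 0.52 at 1 week. Leaving out 1 animal at a time gave 0 to 1 genes within psilocybin (1 without psilocybin animal 6 at 1 week) and 0 to 1 within saline (1 without psilocybin animal 4 at 1 day). The count of members called between batches, 9, ran between 5 (without psilocybin animal 5 at 1 day, psilocybin animal 1 or 5 at 1 week, or saline animal 3 at 1 day) and 18 (without psilocybin animal 3 at 1 week), with 14 without psilocybin animal 6 at 1 week. The cause was not tested. CXCL10 at 1 day ran between -1.69 and -1.18 over 11 other settings (adjusted p 0.0804 to 1) and between -1.60 and -1.22 with each animal left out. The number of pigs and the spread between them limit the precision of every value here.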
